A study of Mus musculus with 4 samples.

Results

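The genes described here make up the presentation of antigen on MHC class I molecules together with the 3 catalytic subunits that define the immunoproteasome. They were chosen by name, and all 10 of the 10 listed genes were found among the 22073 genes of the deposited table of FPKM values (sequenced fragments scaled to transcript length and to the number mapped in the library). The genes are B2m, H2-K1, H2-D1, H2-T23, Tap1, Tap2, Tapbp, Psmb8, Psmb9 and Psmb10. Poly(A) RNA was sequenced from the right testis of mature KM mice, an outbred strain. In 2 hemicastrated mice the left testis had been taken out before puberty, and 2 control mice had undergone sham surgery at that time. The labels name no further allele, agent or age, and the protocol text counts 3 mice per group while 4 individuals were sequenced. Each library is called by its group and number, and the 4 libraries are treated as 4 mice.

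MHC class I molecules show short peptides from inside the cell to CD8 T cells and natural killer cells. The proteasome cuts the peptides, the TAP transporter carries them into the endoplasmic reticulum, and tapasin helps to load them onto a heavy chain bound to beta-2 microglobulin. Interferon gamma is known to raise most of these genes together, and it exchanges the catalytic subunits of the standard proteasome for the immunoproteasome ones. In the testis, class I is known to be low on germ cells and to be made mainly by the interstitial cells.

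The sum of all FPKM was 343105 and 353135 in the hemicastrated libraries and 346632 and 344316 in the controls. Read depth is unknown, so precision rests on how far the 2 mice of a group lie apart. The test covered 11343 genes that averaged 1 FPKM or more, among them 9 of the 10 genes, while H2-T23 was too low. The germ cell marker list summed to 20928 and 20827 FPKM in the hemicastrated libraries and to 18187 and 19733 in the controls, so germ cell RNA was abundant in all 4. The list of epididymis and duct epithelium markers stood apart between the groups, with 17.2 and 17.7 FPKM in the hemicastrated libraries against 1415 and 1973 in the controls. The smallest two-sided p of an exact permutation test in this design is 0.33, so the calls below come from limma, which shares the spread across genes.

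Of the class I genes, B2m alone passed the test, and it was lower in the hemicastrated mice. At an adjusted p under 0.05, 1 of the 9 tested genes was called lower, where 1.19% of all tested genes were, and 0 were called higher, where 0.106% of all tested genes were. One gene, B2m, had an unadjusted p under 0.05. The median log2 fold change of the 9 genes was -0.01, and that of all tested genes was -0.03. H2-K1, H2-D1, Tap1, Tap2, Psmb8 and Psmb9 had higher values in hemicastrated 1 than in hemicastrated 2, H2-T23 had a lower one, and Psmb10 was at 1.97 and 2.05 FPKM in the 2 mice. With hemicastrated 1 left out, 3 of the 9 genes were called lower. With hemicastrated 2 left out, 2 were called higher. With either one left out, limma takes the spread from the 2 controls and from the trend over all genes, and the lone hemicastrated mouse is assumed to vary as the controls do. The adjusted p-values given without a hemicastrated mouse all rest on that assumption and show no spread among hemicastrated mice. Every filter on mean FPKM used all 4 libraries, also where 1 was left out. Tap1 and Tap2 reached the mean of 1 FPKM only through hemicastrated 1, so a high value there was a condition of their being tested.

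**Figure D1:**
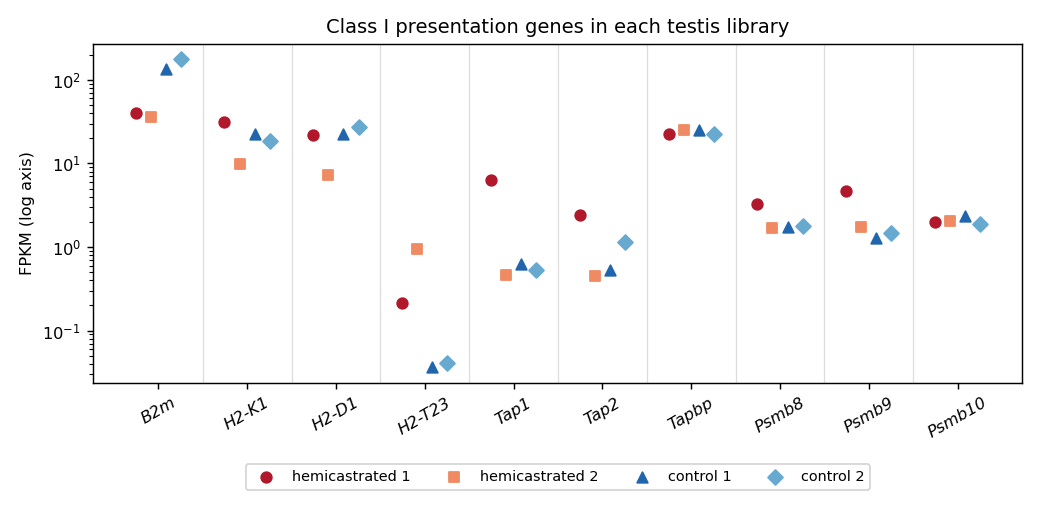
FPKM of each of the 10 genes in each library, on a log axis, with 1 point per mouse and the hemicastrated libraries left of the controls. B2m lies at 39.9 and 36.1 FPKM in the hemicastrated libraries, below 134 and 176 FPKM in the controls, and hemicastrated 1 holds the highest point for H2-K1, Tap1, Tap2, Psmb8 and Psmb9.

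B2m (ENSMUSG00000060802, chr2:122147686-122153083, plus strand, GRCm38) encodes beta-2 microglobulin, the small invariant chain that pairs with classical class I heavy chains. It stood at 39.9 and 36.1 FPKM in hemicastrated 1 and 2, against 134 and 176 FPKM in control 1 and 2. Both hemicastrated values lay below both control values, with little spread within the hemicastrated pair. B2m averaged 38.0 ± 2.7 FPKM in hemicastrated mice and 154.6 ± 29.8 FPKM in control mice (SD, n = 2 each), so the hemicastrated mean was 24.6% of the control mean. Its log2 fold change was -1.98 (SE 0.14, 95% confidence interval -2.33 to -1.64, limma adjusted p = 0.00138). In rank, 1776 and 1982 genes had a higher FPKM than B2m in the hemicastrated libraries, against 501 and 329 genes in the controls. In a whole-tissue library, fewer cells of a type in the testis, less of another tissue in the sample and less RNA per cell cannot be told apart.

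The list of duct epithelium markers was also lower in hemicastrated mice, with a median log2 fold change of -5.05 over its tested genes. Of 12 tested genes of that list, 11 had a negative log2 fold change and 10 were called lower, where 1.19% of all tested genes were. Adam7 and Defb2 were listed at 0 in both hemicastrated libraries. Smooth muscle and peritubular markers summed to 232 and 261 FPKM in hemicastrated mice against 352 and 312 FPKM in controls. Of 9 tested genes, 5 were called lower, where 1.19% of all tested genes were. All 9 had a negative log2 fold change, where 56.6% of all tested genes did, with a median of -1.22. Most of the FPKM sum of this list came from Actg2, which was not called. It was at 183 and 209 FPKM in hemicastrated mice against 219 and 213 FPKM in controls. The part of these cell types in the B2m values was not tested. The macrophage and myeloid list summed to 286 and 272 FPKM in hemicastrated mice and 281 and 283 FPKM in controls, with 0 of 11 tested genes called. Most of that sum came from Aif1, named after its values were seen, which was at 219 and 213 FPKM in hemicastrated mice against 203 and 210.1 FPKM in controls. Without Aif1 the list summed to 66.8 and 58.4 FPKM in hemicastrated mice, against 77.9 and 73.3 FPKM in controls. Of the 11 tested, 5 had both hemicastrated values below both controls (24.8% of all tested genes did) and 1 above both (16.3% did). The 5 were Lyz2, Tyrobp, Fcer1g, Csf1r and Mpeg1 (limma adjusted p of 0.128 to 0.895). The part of these cells in the B2m values was not tested either. The T and NK cell list summed to 9.20 and 13.9 FPKM in hemicastrated mice and 13.5 and 12.8 FPKM in controls. Its T cell gene Cd3e was at 0.0523 and 0 FPKM against 0.114 and 0.045 FPKM. Most of the list's sum came from Cd3d and Cd247, and 11 of the 14 listed genes in the table were under 1 FPKM in every library. Cd3d was at 2.44 and 5.44 FPKM in hemicastrated mice against 4.03 and 5.22 FPKM in controls. Cd247 was at 4.92 and 6.07 FPKM against 5.62 and 5.04 FPKM.

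B2m holds no 50-base stretch in common with another annotated gene. The gene Patl2 spans it on the opposite strand, and was at 0.0513 and 0.0678 FPKM in hemicastrated mice and 0.0185 and 0.0219 FPKM in controls, far below B2m. The start region of B2m is shown because it is the gene that passed the test. The sequence is from RefSeq (GRCm38.p6, chr2:122147437-122147736, plus strand) and runs from 250 bases before to 50 bases after the annotated start, with capitals marking the matches to the motifs below.
B2m: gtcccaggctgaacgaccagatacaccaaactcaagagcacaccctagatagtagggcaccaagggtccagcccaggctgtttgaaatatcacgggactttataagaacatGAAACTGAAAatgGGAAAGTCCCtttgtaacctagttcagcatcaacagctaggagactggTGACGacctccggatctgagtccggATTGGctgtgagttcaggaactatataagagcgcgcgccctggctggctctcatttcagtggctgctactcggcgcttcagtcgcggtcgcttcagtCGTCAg
The 6 motifs were searched on both strands: the interferon-stimulated response element core GAAANNGAAA, an NF-kB site GGGNNTTTCC, the gamma-activated site TTCNNNGAA, the cyclic AMP response element TGACGTCA, its inner part TGACG, which overlaps it, and the CCAAT box. The B2m window holds the interferon-stimulated response element core 139 bases before the start, next to a match to the NF-kB site 126 bases before it. The response element core is found in 3.45% and the NF-kB site in 1.61% of 32544 windows of this length. TGACG matches lie 78 bases before the start and 45 bases after it (20.9% of windows hold one) and a CCAAT match 53 bases before it (37.4% of windows). These matches describe the letters only, and a site spelled otherwise was not searched for.

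H2-K1 (ENSMUSG00000061232, chr17:33996017-34000347, minus strand) and H2-D1 (ENSMUSG00000073411, chr17:35262730-35267499, plus strand) encode the classical heavy chains, the part of the class I molecule that holds the peptide. H2-K1 was at 31.7 and 9.87 FPKM in hemicastrated mice, against 22.3 and 18.7 FPKM in controls. The hemicastrated values lay on either side of the control values, so the groups overlapped. Its log2 fold change was -0.18 (SE 0.46, 95% confidence interval -1.31 to 0.94, limma adjusted p = 0.927). H2-D1 was at 22.04 and 7.34 FPKM in hemicastrated mice, against 22.4 and 27.4 FPKM in controls. Hemicastrated 1 was just under the lower control and hemicastrated 2 far under it, and the log2 fold change was -0.89 (SE 0.43, 95% confidence interval -1.94 to 0.15, limma adjusted p = 0.554).

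Both heavy chain genes were about 3 times as high in hemicastrated 1 as in hemicastrated 2. The ratio of hemicastrated 1 to hemicastrated 2 was 3.21 for H2-K1 and 3.0 for H2-D1, and the ratio of control 1 to control 2 was 1.19 for H2-K1 and 0.816 for H2-D1. Without hemicastrated 1, H2-K1 had a log2 fold change of -0.98 (limma adjusted p = 0.0344) and H2-D1 of -1.63 (limma adjusted p = 0.00362). Without hemicastrated 2, H2-K1 had a log2 fold change of 0.61 (limma adjusted p = 0.154) and H2-D1 of -0.16 (limma adjusted p = 0.759). Neither gene was called in any alternative that kept hemicastrated 1.

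The 2 heavy chain coding sequences are 91.5% identical over 1077 aligned bases, and 9.63% of the distinct 50-base stretches of H2-K1 transcripts and 12.8% of those of H2-D1 also occur in other annotated genes, so the counting could split reads between them. The class I loci are among the most variable genes of the mouse, KM mice are outbred, and the submitters' processing notes name GRCm38, which is the assembly of the C57BL/6J strain. Whether alleles carried by single mice shifted the values of the H2 genes was not tested. The start regions of both genes are shown to let their shared letters be seen (RefSeq, GRCm38.p6, chr17:34000298-34000597, minus strand, for H2-K1 and chr17:35262844-35263143, plus strand, for H2-D1, capitals as above).
H2-K1: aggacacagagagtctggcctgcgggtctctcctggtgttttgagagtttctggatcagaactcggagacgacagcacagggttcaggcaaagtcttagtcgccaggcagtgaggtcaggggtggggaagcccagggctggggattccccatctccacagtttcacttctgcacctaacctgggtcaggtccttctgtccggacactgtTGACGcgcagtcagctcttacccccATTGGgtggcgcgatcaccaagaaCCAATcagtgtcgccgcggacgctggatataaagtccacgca
H2-D1: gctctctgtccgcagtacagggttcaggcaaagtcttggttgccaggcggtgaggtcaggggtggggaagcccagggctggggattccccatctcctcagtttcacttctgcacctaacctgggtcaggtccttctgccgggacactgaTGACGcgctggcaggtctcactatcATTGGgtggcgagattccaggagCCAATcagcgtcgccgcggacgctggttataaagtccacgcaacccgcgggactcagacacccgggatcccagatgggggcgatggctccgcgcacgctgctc
Each holds 1 TGACG match and 2 CCAAT matches in this window. Neither has a match to the longer motifs as spelled above, which does not show that such sites are absent.

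Because FPKM is scaled to transcript length, levels of B2m and of the heavy chains can be set side by side. The FPKM of B2m divided by that of H2-K1 plus H2-D1 was 0.743 and 2.10 in hemicastrated mice, against 2.99 and 3.81 in controls. In hemicastrated 1 the heavy chains together (53.7 FPKM) exceeded B2m, and in the other 3 libraries B2m exceeded them. The heavy chain sum itself was 53.7 and 17.2 FPKM in hemicastrated mice, against 44.7 and 46.1 FPKM in controls, with the controls inside the range of the hemicastrated pair.

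H2-T23 (ENSMUSG00000067212, chr17:36029773-36032855, minus strand) encodes Qa-1, a nonclassical heavy chain that is recognised by inhibitory receptors of natural killer cells. It was at 0.211 and 0.950 FPKM in hemicastrated mice, against 0.0365 and 0.0412 FPKM in controls. Both hemicastrated values were above both controls, but all lay under 1 FPKM and the gene was not among those tested. With no filter on low values its log2 fold change was 0.56 (SE 0.24, limma adjusted p = 0.53). Unlike the classical genes, H2-T23 was higher in hemicastrated 2 than in hemicastrated 1.

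Other genes of the class I family were near the floor of the table. Of 23 listed class I and class I-like genes in the table, 17 were under 1 FPKM in every library, and 0 of the 2 tested were called. Hfe, an iron regulator, was at 4.01 and 3.09 FPKM in hemicastrated mice against 3.75 and 2.77 FPKM in controls, and the neonatal Fc receptor gene Fcgrt was at 3.83 and 3.87 against 5.13 and 3.29 FPKM. Near H2-T23, genes of the T region showed a split between mice, and they are named here after their values were seen. H2-T22 was at 0.224 and 1.01 FPKM in hemicastrated mice against 0.190 and 0.193 FPKM in controls. H2-Bl was listed at 0 in hemicastrated 1, was at 1.47 FPKM in hemicastrated 2 and was listed at 0 in both controls. H2-T10 was at 0.751 FPKM in hemicastrated 1 and listed at 0 in hemicastrated 2, against 1.06 and 0.796 FPKM in controls. An exact 0 in this table can be a failed estimate.

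Tap1 and Tap2 encode the 2 chains of the peptide transporter. Tap1 (ENSMUSG00000037321, chr17:34187553-34197225, plus strand) was at 6.34 and 0.464 FPKM in hemicastrated mice, against 0.627 and 0.527 FPKM in controls. Hemicastrated 1 stood 13.7 times above hemicastrated 2, which was itself below both controls. The log2 fold change was 1.06 (SE 0.67, 95% confidence interval -0.57 to 2.68, limma adjusted p = 0.66), was 2.22 without hemicastrated 2 and was -0.11 without hemicastrated 1. Tap1 reached the filter on mean FPKM only through hemicastrated 1, and so did Tap2. Tap2 (ENSMUSG00000024339, chr17:34203527-34216321, plus strand) was at 2.39 and 0.451 FPKM in hemicastrated mice, against 0.533 and 1.14 FPKM in controls. It too was highest in hemicastrated 1 and lowest in hemicastrated 2, with a log2 fold change of 0.29 (95% confidence interval -0.67 to 1.25, limma adjusted p = 0.854) that was -0.32 without hemicastrated 1 and 0.90 without hemicastrated 2.

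Tapbp (ENSMUSG00000024308, chr17:33915899-33929292, plus strand) encodes tapasin, which holds the empty heavy chain at the transporter. It was at 22.2 and 24.9 FPKM in hemicastrated mice, against 25.2 and 22.2 FPKM in controls, and all 4 libraries lay close together. The log2 fold change was -0.01 (95% confidence interval -0.28 to 0.26, limma adjusted p = 0.991). Tapbp shares 23.2% of its 50-base stretches with other annotated genes, most of all with the antisense gene Gm19412, and the libraries carry no strand. Zbtb22, which overlaps it on the same strand, was at 12.1 and 8.26 FPKM in hemicastrated mice and 11.3 and 12.5 FPKM in controls.

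Psmb8, Psmb9 and Psmb10 replace the standard catalytic subunits in the immunoproteasome. Psmb9 (ENSMUSG00000096727, chr17:34181987-34187764, minus strand) was at 4.69 and 1.71 FPKM in hemicastrated mice, against 1.27 and 1.47 FPKM in controls. Both hemicastrated values were above both controls, hemicastrated 2 by a small step. Its log2 fold change was 0.73 (SE 0.33, 95% confidence interval -0.07 to 1.53, limma adjusted p = 0.522), and it was 1.26 without hemicastrated 2 (limma adjusted p = 0.0237) and 0.20 without hemicastrated 1. Psmb8 (ENSMUSG00000024338, chr17:34197721-34201454, plus strand) was at 3.24 and 1.68 FPKM in hemicastrated mice, against 1.73 and 1.78 FPKM in controls. Hemicastrated 1 was again the highest and the other 3 libraries were level, with a log2 fold change of 0.29 (95% confidence interval -0.26 to 0.84, limma adjusted p = 0.726) that was -0.04 without hemicastrated 1 and 0.62 without hemicastrated 2. Psmb10 (ENSMUSG00000031897, chr8:105935735-105938444, minus strand), which lies outside the MHC, was at 1.97 and 2.05 FPKM in hemicastrated mice, against 2.32 and 1.87 FPKM in controls. Hemicastrated 1 was not raised in this gene, and the log2 fold change was -0.03 (95% confidence interval -0.39 to 0.32, limma adjusted p = 0.959). Among the 9 tested genes, 2 had both hemicastrated values below both controls (24.8% of all tested genes did) and 1 had both above (16.3% of all tested genes did).

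**Figure D2:**
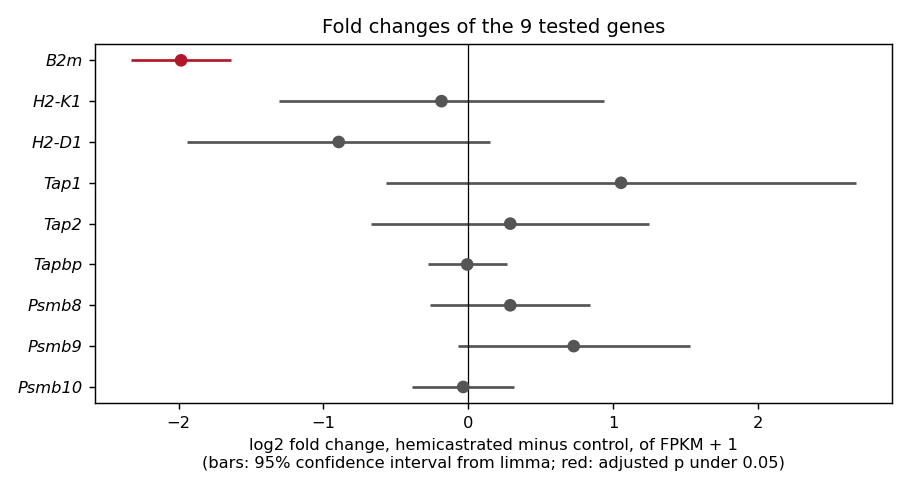
Log2 fold change (hemicastrated minus control, FPKM + 1) of the 9 tested genes as points, with 95% confidence intervals from limma as bars (n = 2 each). The interval of B2m (-2.33 to -1.64) lies below 0, and those of the other 8 genes include 0, with the widest for Tap1 (-0.57 to 2.68).

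The standard subunits far exceeded the inducible ones in every library. Psmb5 was at 13.9 and 12.3 FPKM in hemicastrated mice against 14.4 and 13.0 FPKM in controls, and Psmb6 was at 220.2 and 242 against 223 and 209 FPKM. Psmb7 was at 103 and 110.2 FPKM in hemicastrated mice against 97.0 and 97.9 FPKM in controls. None of the 3 was called (limma adjusted p of 0.67 to 0.897), and their confidence intervals allowed log2 changes of -0.34 to 0.32. As a percentage of its counterpart, Psmb8 was 23.4% and 13.7% of Psmb5 in hemicastrated mice, against 12.05% and 13.7% in controls. Psmb9 was 2.13% and 0.707% of Psmb6 in hemicastrated mice, against 0.568% and 0.706% in controls. Psmb10 was 1.92% and 1.86% of Psmb7 in hemicastrated mice, against 2.39% and 1.90% in controls. Together the inducible genes made up 2.85% and 1.47% of the FPKM of all 6 catalytic genes in hemicastrated mice, against 1.56% and 1.58% in controls. The coding sequences within these pairs are 63.3% to 66.8% identical, so they are less alike than the heavy chains.

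**Figure D3:**
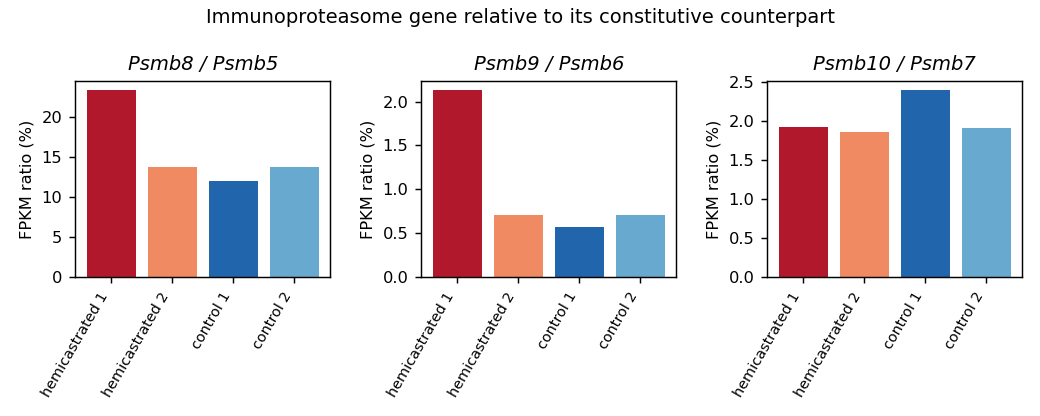
FPKM of each immunoproteasome gene as a percentage of its constitutive counterpart, with 1 bar per library and the hemicastrated libraries on the left. Hemicastrated 1 reaches 23.4% for Psmb8 over Psmb5 and 2.13% for Psmb9 over Psmb6, above the other 3 libraries, and lies among them for Psmb10 over Psmb7.

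Psmb9, Tap1, Psmb8 and Tap2 lie in this order within 34.3 kb of chromosome 17, and hemicastrated 1 had the highest value of each. Psmb9 and Tap1 run in opposite directions, and their annotated gene spans overlap by 212 bases, so without strand their first exons cannot be fully told apart. The overlap makes 4.19% of the 50-base stretches of Psmb9 shared with Tap1. The RefSeq start region of Tap1 is shown (GRCm38.p6, chr17:34187306-34187605, plus strand). By the gene spans given above, it lies inside Psmb9. The RefSeq window of Psmb9 (chr17:34187281-34187580) covers nearly the same bases on the other strand.
Tap1: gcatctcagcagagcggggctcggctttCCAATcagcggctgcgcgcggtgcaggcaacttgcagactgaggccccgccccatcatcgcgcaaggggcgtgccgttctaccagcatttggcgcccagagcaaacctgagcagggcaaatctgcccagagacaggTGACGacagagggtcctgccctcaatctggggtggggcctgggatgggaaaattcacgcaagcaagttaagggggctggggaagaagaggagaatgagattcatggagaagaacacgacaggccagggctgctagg
It holds a TGACG match 86 bases before the Tap1 start and a CCAAT match 222 bases before it, in capitals. It has no match to the longer motifs as spelled above. Psmb8 has a match to TTCNNNGAA (8.33% of windows hold one), H2-T23 has one to GAAANNGAAA, and the window of Psmb10 has none of the 6 motifs. Promoter sequences were matched for 9 of the 10 genes, the exception being Tap2.

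The spread between the 2 hemicastrated mice was large for these genes compared with the rest of the table. The median absolute log2 difference between hemicastrated 1 and hemicastrated 2 was 1.07 over the 9 tested genes and 0.14 over all tested genes. Between the controls it was 0.21 over the 9 genes and 0.13 over all tested genes. Hemicastrated 1 exceeded hemicastrated 2 by 2.33 for Tap1, 1.59 for H2-K1, 1.47 for H2-D1, 1.22 for Tap2, 1.07 for Psmb9 and 0.66 for Psmb8 on the log2 scale. Only 31 of the 11343 tested genes differed more between these 2 mice than H2-K1 did. Tap1 and Tap2 reached the filter on mean FPKM only through hemicastrated 1, so the filter itself favoured a large gap in them. The median over the 9 genes includes both. B2m, Tapbp and Psmb10 differed by 0.14, -0.16 and -0.04, which is near the median size over all tested genes for B2m and Tapbp and below it for Psmb10.

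**Figure D4:**
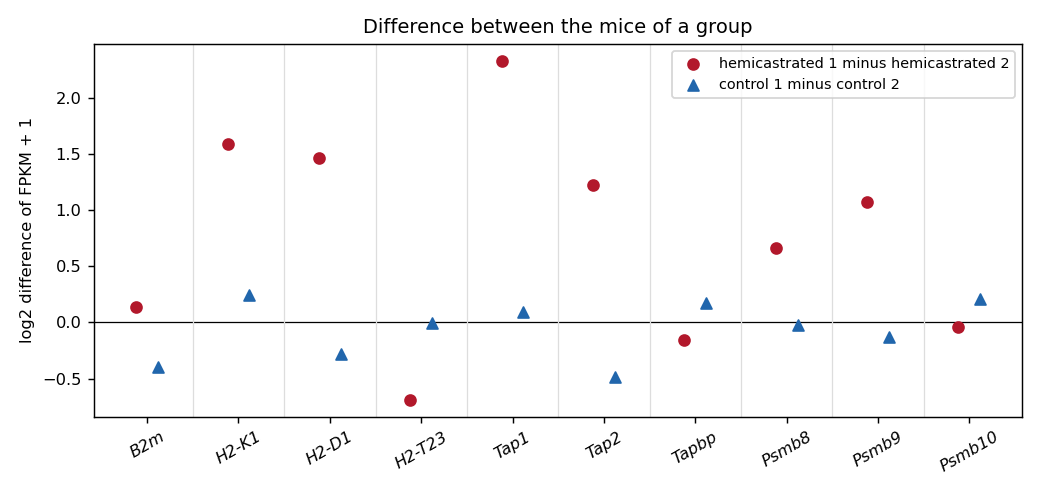
Log2 difference (FPKM + 1) between the 2 hemicastrated mice (circles) and between the 2 control mice (triangles) for each of the 10 genes. The hemicastrated difference is over 1 for H2-K1, H2-D1, Tap1, Tap2 and Psmb9, while every control difference lies between -0.48 and 0.24.

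Between the hemicastrated mice, the median difference was smaller for MHC segment genes outside the list than for the tested genes of the list. From Tapbp to H2-T23 (chr17:33915899-36032855), 76 genes were tested and 0 were called in either direction by limma. A log2 difference of over 1 between the hemicastrated mice was found for 7 of these 76, against 1.01% of all tested genes. Between the controls it was found for 0 of the 76, against 0.811% of all tested genes. The 7 were H2-K1, H2-D1, Tap1, Tap2 and Psmb9 with Ring1 and Neu1, which were lower in hemicastrated 1 and are named after their values were seen. Tap1 and Tap2 were tested only through hemicastrated 1. The median absolute difference of the 69 tested genes of the segment outside the list was 0.17 between hemicastrated mice and 0.15 between controls. Over all tested genes these medians were 0.14 and 0.13.

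Genes that act around class I showed no call. Of 13 tested peptide loading and trimming genes, 0 were called and 12 had a negative log2 fold change, where 56.6% of all tested genes did, with a median of -0.10. The glycoprotein folding sensor Uggt1 was at 2.58 and 2.82 FPKM in hemicastrated mice, against 4.14 and 4.24 FPKM in controls (limma adjusted p = 0.232). The peptide-trimming aminopeptidase Erap1 was at 0.835 and 0.914 FPKM in hemicastrated mice against 1.25 and 1.22 FPKM in controls. Of 17 tested core proteasome and assembly genes, 0 were called, with a median of -0.05. Psmb3 was at 13.6 and 8.73 FPKM in hemicastrated mice against 4.11 and 5.61 FPKM in controls (log2 fold change 1.04, limma adjusted p = 0.15), and without hemicastrated 2 it was called (log2 fold change 1.33, limma adjusted p = 0.0247). Of 5 proteasome activator genes, 0 were called. Psme2, a subunit of the interferon-inducible activator, was at 0.787 and 1.39 FPKM in hemicastrated mice, against 2.56 and 1.67 FPKM in controls (limma adjusted p = 0.412).

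Regulators of class I transcription were not called. Of 19 tested genes, 0 were called, with 14 negative log2 fold changes and a median of -0.14. The interferon signalling kinase gene Jak2 was at 0.692 and 0.864 FPKM in hemicastrated mice, against 1.97 and 1.87 FPKM in controls (log2 fold change -0.72, limma adjusted p = 0.116). Irf9, which binds interferon response elements as part of a complex, was at 0.820 and 1.04 FPKM in hemicastrated mice against 1.21 and 1.60 FPKM in controls. Irf1 and Nlrc5 were named after their values were seen. Irf1, an interferon-induced transcription factor, was at 0.957 and 1.13 FPKM in hemicastrated mice against 1.21 and 0.936 FPKM in controls. Nlrc5, the class I transactivator, was at 0.691 and 0.213 FPKM in hemicastrated mice against 0.794 and 0.418 FPKM in controls. It was higher in hemicastrated 1 than in hemicastrated 2, like the heavy chains, but its highest value was in control 1.

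Of 6 tested genes of the class II pathway, which presents peptides from outside the cell, 1 was called lower and 0 higher. The called gene was Cd74, the invariant chain, at 9.14 and 10.8 FPKM in hemicastrated mice against 17.2 and 17.7 FPKM in controls (log2 fold change -0.75, SE 0.12, limma adjusted p = 0.0463). Its call was lost in 7 of 12 alternatives, with an adjusted p of up to 0.324. The class II chain genes had higher values in hemicastrated mice without passing the test. H2-Eb1 was at 2.89 and 1.59 FPKM in hemicastrated mice against 0.383 and 0.0458 FPKM in controls (log2 fold change 1.40, limma adjusted p = 0.0723). Both controls were under 1 FPKM, and H2-Eb1 reached the filter on mean FPKM only through the hemicastrated mice. It was called under quantile normalization (limma adjusted p = 0.0461) and with the replicate block (limma adjusted p = 0.00418). Both settings kept that filter, so these calls add no independent support for a rise. H2-Aa was at 4.34 and 2.22 against 1.68 and 1.05 FPKM (limma adjusted p = 0.335), and H2-Ab1 at 5.61 and 5.90 against 4.14 and 2.53 FPKM (limma adjusted p = 0.291). H2-DMa was not higher, at 3.68 and 3.16 FPKM in hemicastrated mice against 3.57 and 3.82 FPKM in controls (log2 fold change -0.09). Genes for receptors that read class I were near 0. All 11 in the table were under 1 FPKM in every library, and 4 were listed at 0 throughout.

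**Figure D5:**
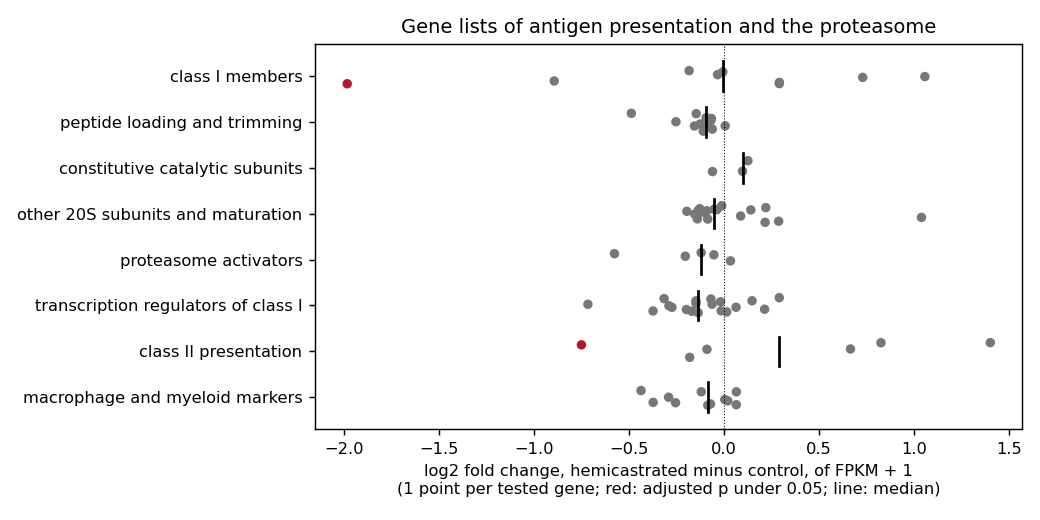
Log2 fold change (hemicastrated minus control, FPKM + 1) of the tested genes of 8 lists, 1 point per gene with the list's median as a line and called genes in red. B2m at -1.98 and Cd74 at -0.75 are the only called genes in the plot, and the medians lie between -0.14 and 0.29.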

How the data were processed

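Poly(A) RNA of the right testis of 2 hemicastrated and 2 control mice was measured. The values deposited by the authors are FPKM, per the file headers, with no pooling of libraries. Cufflinks 2.2.1, TopHat2 2.0.11 and GRCm38 are named in the submitters' processing notes without their roles, and no source used here gives the annotation. Per the labels' protocols no step marks the strand. The labels call the molecule genomic DNA, and the values were read as RNA. GENCODE M21 named 21806 of 22073 identifiers.

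FPKM plus a pseudocount of 1 was taken to log2 and the 11343 genes averaging 1 FPKM or more were compared by limma 3.58.1 (R 4.3.3) using a variance trend and no covariate, two-sided and Benjamini-Hochberg adjusted over all tested genes. An adjusted p under 0.05 was called. The fold change understates that of low genes. Shared stretches of 50 bases were counted over GENCODE transcripts, and coding sequences were aligned globally with Biopython 1.88. Named genes are the 10 of the list, up to 4 tested genes of each other list (called first, then smallest p), and some that the text marks as picked later. Adam7, Actg2, Cd3e, Cd3d, Cd247, Mpeg1, H2-DMa and genes that overlap a listed gene were named outside that rule. Genes and lists were chosen with earlier results of these data known. Alternatives were another pseudocount, filter, scaling and variance model, a replicate block and each library left out.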

Additional observations from a re-analysis of the deposited data

How the results depend on the processing

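The call of B2m held in all 12 alternatives (log2 fold change -2.18 to -1.79, limma adjusted p of 8.9e-05 to 0.0259). Over the 4 settings that leave out 1 library, 1 to 3 of the class I genes were called lower and 0 to 2 higher, and their median log2 fold change ran from -0.11 to 0.61. With a mean of at least 5 FPKM, which tests fewer genes, that median was -0.54. Over all tested genes, leaving out a library gave 78 to 156 lower and 0 to 26 higher genes, against 135 and 12 with all 4. The 0 came without control 2, where limma gave 1000 genes an unadjusted p under 0.05. With a mean of at least 5 FPKM 63 genes were lower and 7 higher, and with no filter 3 were higher. The replicate numbers are not stated to pair mice (the correlation of the within-group differences was 0.0137), and with the replicate block 30 genes were higher and the B2m log2 fold change was -1.98.

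Of 440 values of 38 single genes under alternatives, 408 kept direction and side of the threshold, 17 changed direction, 7 lost a call and 8 gained one. Leaving out a library moved the log2 fold change over -0.11 to 2.22 for Tap1, -0.32 to 0.90 for Tap2, -0.040 to 0.62 for Psmb8, -0.98 to 0.61 for H2-K1, -0.14 to 0.071 for Psmb10, -0.095 to 0.080 for Tapbp, -0.071 to 0.26 for Hfe, -0.34 to 0.18 for Fcgrt, -0.14 to 0.020 for Psmb5 and -0.17 to 0.062 for Psme4. Under quantile normalization the values of Psmb10 (0.061), Tapbp (0.0030) and Fcgrt (0.0029) turned positive. The causes were not tested. Depth is unknown, so no detection limit can be given for genes listed at 0.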
